A study of Sus scrofa with 16 samples.

Results

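Pluripotent cells keep their undifferentiated state through a small network of transcription factors. POU5F1 (OCT4), SOX2 and NANOG form its core in mouse and human cells, and they bind together near many genes that are active only in the undifferentiated state. Around them stand further DNA-binding factors (SALL4, PRDM14, ZFP42, ZSCAN10, VRTN), the RNA-binding protein LIN28A, which holds back maturation of the let-7 family of small RNAs, and TDGF1 (CRIPTO), a membrane-anchored co-receptor for the signal NODAL. SOX2 has a second role, since neural progenitors use it as well.

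The 10 genes named above were followed in porcine embryonic stem cells (pESCs) and in their differentiated progeny. They were taken from the 28232 rows of the deposited expression table by gene symbol. For NANOG, which has 2 rows, the row with the higher summed read count was used. All 10 were among the 18528 genes tested.

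The series held 16 poly-A RNA libraries, 2 for each of 8 groups. IVF cells were of the line IVF_1_ pESC_FIW, from an embryo fertilised in vitro, and PA cells of the line PA_3_ pESC_FIW, from a parthenogenetically activated oocyte. Both lines were kept on inactivated mouse fibroblasts with FGF2 and the inhibitors IWR-1 and WH-4-023, and were sampled undifferentiated at day 0. For differentiation they were first seeded on Matrigel in the same medium with a ROCK inhibitor, before day 0. Whether the day 0 libraries came from cells on Matrigel or on fibroblasts was not given. The libraries of days 16, 28 and 45 came from cultures driven towards midbrain dopaminergic neurons by SB431542, Noggin, SHH and CHIR99021, followed by FGF8, then BDNF and ascorbic acid, and by GDNF, dibutyryl-cAMP and DAPT from day 16. With 1 line per embryo origin, origin and line cannot be told apart. The series describes its replicates as biological duplicates, but whether these were separate cultures was not given, so the p-values measure only the spread between these libraries.

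Library totals ran from 39247693 to 52165867 counts, with 17727 to 19702 genes counted. Replicates correlated at 0.983 (PA cells, day 45) to 0.998 (Pearson, log2(CPM + 1), across tested genes). The level of a gene is given as CPM, its read count scaled to the library size with TMM factors. A gene was said to rise or fall when its edgeR quasi-likelihood test, adjusted over all genes tested by Benjamini-Hochberg, gave p below 0.05 and the change was at least 2-fold. The summed CPM of 9 neuron markers was 259 to 493 at day 0 and 1859 to 6546 later, and that of 10 neural progenitor markers was 1046 to 1189 and 2107 to 6713. In these bulk samples, fewer cells of a type and less RNA per cell cannot be told apart.

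On Sscrofa11.1, POU5F1 lies on chromosome 7 (23564654 to 23570691, minus strand) and SOX2 on chromosome 13 (119668476 to 119669435, plus strand). Of the further DNA-binding factors, PRDM14 lies on chromosome 4 (65273988 to 65295362, plus strand), ZSCAN10 on chromosome 3 (39113307 to 39119033, plus strand) and VRTN on chromosome 7 (97614707 to 97624273, plus strand). ZFP42 (7401729 to 7409027) and SALL4 (53082610 to 53103023) both lie on the minus strand of chromosome 17. LIN28A lies on chromosome 6 (83806178 to 83818550, plus strand) and TDGF1 on chromosome 13 (29537874 to 29544686, plus strand).

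At day 0 all 10 genes were counted in all 4 stem cell libraries. POU5F1, a POU-domain activator, had the highest level per transcript length in both lines, at 1477 and 1512 TPM (the deposited values, scaled to transcript length and library total) in IVF cells and 1551 and 1584 TPM in PA cells. It stood at rank 109 of all genes in IVF cells and rank 113 in PA cells. LIN28A followed at 945 ± 7.02 TPM (SD, n = 2) in IVF cells and 874 ± 28.6 in PA cells, and SOX2 at 486 ± 45.6 and 399 ± 3.86 TPM. The gene models of LIN28A and SOX2 hold coding sequence alone (618 and 960 bases), so their TPM values are per coding length and their places are less certain.

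SALL4, a zinc-finger repressor, stood at 242 ± 0.932 TPM in IVF cells and 212 ± 4.93 in PA cells. PRDM14, a PR-domain regulator of DNA methylation in mouse stem cells, was at 167 ± 1.15 and 147 ± 4.35 TPM. VRTN, a DNA-binding protein known in pigs for its link to the number of vertebrae, was at 111 ± 2.58 and 108 ± 6.28 TPM, and ZSCAN10, a SCAN-domain zinc-finger factor, at 70.1 ± 2.86 and 68.3 ± 1.35 TPM. These 4 genes kept the same order in the 2 lines.

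ZFP42 (REX1), a zinc-finger protein used as a marker of the ground state in mouse cells, did not keep its place. Its level was 42.0 and 43.0 TPM in IVF cells, below ZSCAN10, and 127 and 131 TPM in PA cells, between PRDM14 and VRTN. NANOG, the homeodomain member of the core, was low in both lines at 21.2 ± 0.367 and 14.9 ± 0.236 TPM, although 78.0% and 74.8% of all genes were lower still. TDGF1 was below NANOG in IVF cells (17.0 ± 0.966 TPM) and above it in PA cells (24.7 ± 1.29 TPM). The libraries of neighbouring genes in either order did not overlap, with the narrowest step, from ZFP42 to VRTN in PA cells, at 2.49 times the summed SDs.

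A pair of rows of the table carry the symbol NANOG, and their sequences show how far reads could be shared between them. The row used lies on chromosome 5 (62931642 to 62939086, plus strand, 5 exons, Sscrofa11.1). The other lies on chromosome 1 (169064134 to 169065292, plus strand), has 1 exon and sits inside THSD4 on the same strand. Over 1159 aligned bases the transcripts were 99.5% identical, with 6 substitutions, of which 2 fall in the coding sequence. These are T926G and G1060C, counted from 1 at the start of the chromosome 5 transcript, with the chromosome 5 base first. The windows around them are shown with the differing base in capitals.
chromosome 5, position 926: ccttgcagatgtcaTctgctgagaccctc
chromosome 1, same site: ccttgcagatgtcaGctgctgagaccctc
chromosome 5, position 1060: gagaagagcacagaGaaggaggaaaaggt
chromosome 1, same site: gagaagagcacagaCaaggaggaaaaggt
The first 609 bases of the chromosome 5 transcript have no counterpart in the copy. At day 0 the chromosome 1 row took 12.6% of the NANOG reads in IVF cells and 13.1% in PA cells. At day 16 its share was 34.6% in IVF cells, from 9 of its counts against 17 of the chromosome 5 row, and 11.5% in PA cells, from 7 against 54. A read over the shared part cannot be assigned with certainty, and all NANOG values are uncertain to that extent. THSD4 was counted 38 to 152 times per library at day 0 and 2406 to 6839 times later. No other member had a copy of at least 300 bases at 90% identity or more elsewhere in the genome. ZSCAN10 lies wholly inside LOC106509717 on the opposite strand, and that gene had 20 to 179 counts per library. Whether counting used strand was not given.

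The 250 bases before the RefSeq start of POU5F1 and of ZFP42 are shown because these genes differ in behaviour between the lines: POU5F1 had close levels in both at day 0, and ZFP42 did not. The sequences are those of Sscrofa11.1 (RefSeq annotation), read 5′ to 3′ on the gene's strand, and capitals mark GGGCGG (a GC box) and AGGTCA (a nuclear receptor half-site) on either strand.
POU5F1, chr7:23570692-23570941, minus strand: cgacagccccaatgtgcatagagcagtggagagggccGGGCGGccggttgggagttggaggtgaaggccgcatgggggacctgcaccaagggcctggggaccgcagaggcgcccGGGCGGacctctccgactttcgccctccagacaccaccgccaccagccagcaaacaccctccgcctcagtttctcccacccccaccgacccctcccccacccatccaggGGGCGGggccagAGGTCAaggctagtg
ZFP42, chr17:7409028-7409277, minus strand: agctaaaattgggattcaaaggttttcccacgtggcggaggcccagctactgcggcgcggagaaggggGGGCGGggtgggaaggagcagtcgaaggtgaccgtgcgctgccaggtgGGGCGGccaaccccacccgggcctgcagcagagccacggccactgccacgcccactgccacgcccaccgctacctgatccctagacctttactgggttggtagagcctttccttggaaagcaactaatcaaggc
POU5F1 had 3 GC boxes, which start 213, 136 and 27 bases before the gene, and a half-site 15 bases before it. ZFP42 had 2 GC boxes and no half-site. The marked matches did not overlap each other. Both motifs were chosen after the POU5F1 sequence had been read, and they are common: 45.9% of 19556 upstream windows of protein-coding genes held a GC box and 12.25% a half-site.

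The motifs searched before that were the octamer ATTTGCAT, the SOX motif CATTGT and the E-box CACGTG, on both strands. The octamer was in 0 of the 10 windows (1.24% of all windows). The SOX motif was in 2, those of ZSCAN10 and LIN28A (7.29% of all), and the E-box was in 1, that of ZFP42 (6.39% of all). For SOX2 and LIN28A the window lies before the coding start, since no untranslated exon is annotated. A match is a description of letters, not a bound site.

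From day 0 to day 16, 9 of the 10 genes fell in IVF cells, where 14.0% of all tested genes fell, and 9 of 10 fell in PA cells, where 14.4% did. SOX2 was the exception in both. POU5F1 was at 929 and 907 CPM in the IVF stem cells and at 0 counts in both IVF libraries of day 16 (at least 14400.4-fold lower against a floor of 3 counts per library, adjusted p = 1.66e-10, edgeR). In PA cells it went from 1042 and 1105 CPM to 0 in 1 library and 2 counts in the other. That is a ratio of 49396 with a 95% counting interval of 13674 to 407888, which covers counting error only (adjusted p = 1.76e-10).

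PRDM14, VRTN, ZFP42 and TDGF1 had 0 counts in every library of days 16, 28 and 45, in both lines. A count of 0 in these libraries allows a level of up to 0.0594 to 0.0681 CPM. PRDM14 was at 164 and 162 CPM at day 0 in IVF cells and at 155 and 166 in PA cells, a fall of at least 2563-fold (adjusted p = 1.58e-09) and at least 2457-fold (adjusted p = 1.79e-09). VRTN was at 176 and 182 CPM in IVF cells and at 183 and 204 in PA cells, and fell at least 2811-fold (adjusted p = 1.78e-09) and 2958-fold (adjusted p = 1.89e-09). With 0 reads left, the size of each bound follows from the level at day 0 alone.

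TDGF1, at 13.2 and 12.1 CPM in IVF cells and 19.5 and 21.6 in PA cells at day 0, fell at least 199-fold (adjusted p = 2.43e-07) and 315-fold (adjusted p = 1.64e-07). ZFP42 fell at least 569-fold in IVF cells (adjusted p = 9.53e-09) and 1869-fold in PA cells (adjusted p = 4.26e-09). ZSCAN10, at 99.7 and 93.9 CPM in IVF cells and 103 and 108 in PA cells, fell to 0 counts at day 16 in both lines (at least 1518-fold and 1613-fold, adjusted p = 3.28e-09 and 3.61e-09). It stayed at 0 in IVF cells, while single PA libraries of day 28 and day 45 held 2 and 4 counts. These 6 genes were thus at or near the floor at the first sampled time of differentiation, and no fold is given for them at later steps.

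**Figure D1:**
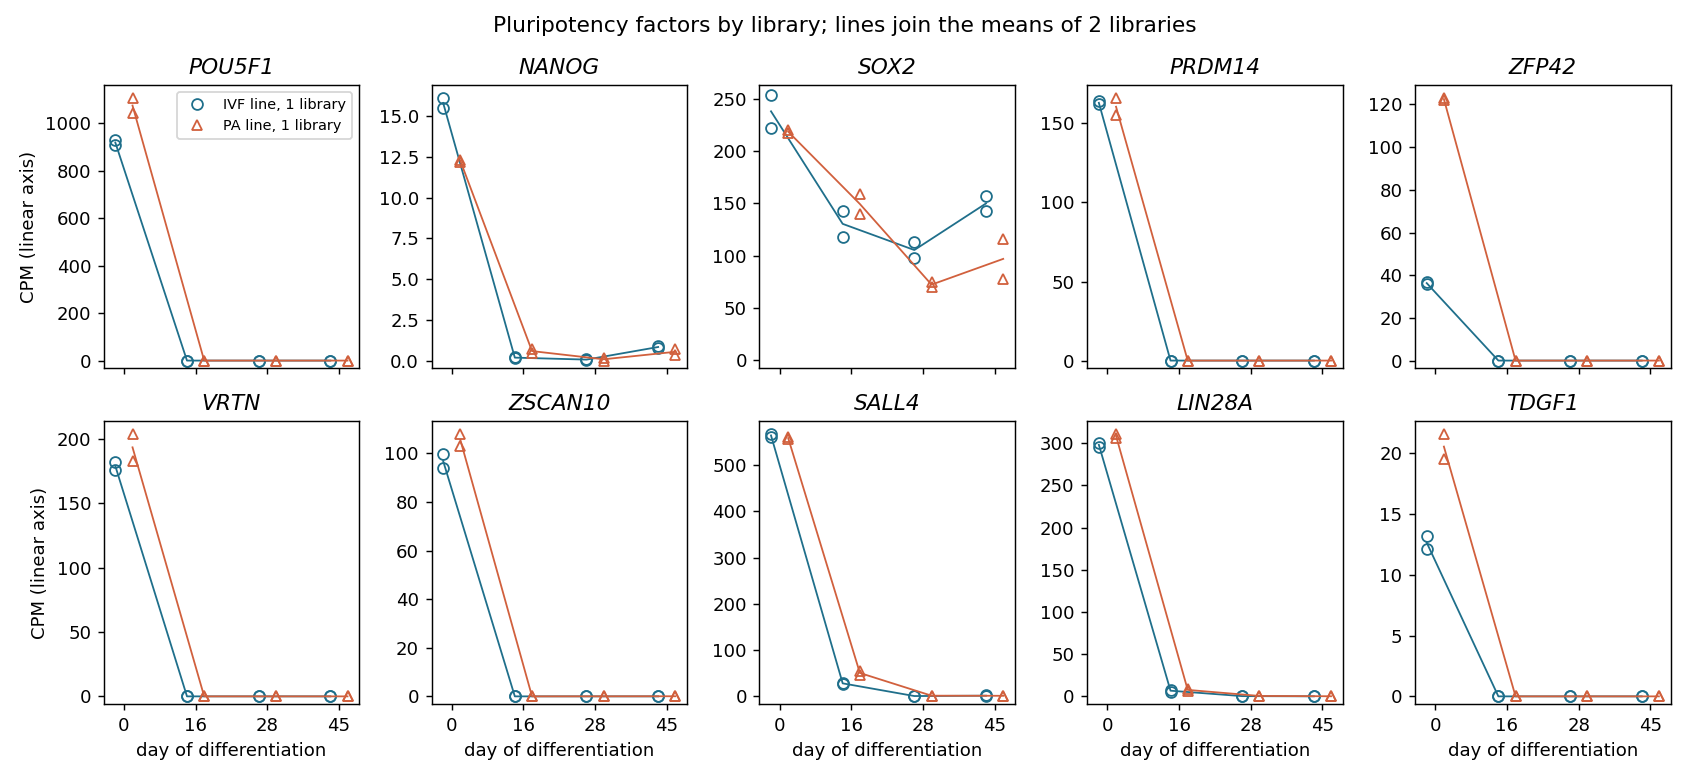
Level of each of the 10 genes (CPM, linear axis from 0, each panel with its own range) at days 0, 16, 28 and 45 in the IVF line (circles) and the PA line (triangles), 1 symbol per library, lines through the means of 2 libraries. In 9 panels the symbols drop to or close to 0 at day 16, SOX2 stays at 70.0 CPM or above in every library, and the ZFP42 symbols of the lines stand apart at day 0.

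SALL4, LIN28A and NANOG also fell by day 16, but reads remained. SALL4 was at 568 and 561 CPM in IVF stem cells and at 29.3 and 27.0 at day 16 (log2 fold change -4.33 ± 0.22, standard error, adjusted p = 8.51e-10), which left 4.98% of its day 0 level. In PA cells it went from 560.3 and 557 to 54.1 and 47.1 CPM (log2 fold change -3.46 ± 0.21, adjusted p = 5.79e-09), or 9.06%. Every day 16 library lay under every day 0 library by a wide margin.

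LIN28A was at 300.1 and 296 CPM in IVF cells and fell to 7.85 and 5.58 (log2 fold change -5.47 ± 0.28, adjusted p = 9.37e-10). In PA cells it fell from 311 and 306 to 8.63 and 6.70 CPM (log2 fold change -5.33 ± 0.27, adjusted p = 1.24e-09). The remaining shares were 2.25% and 2.49%, close to each other in the 2 lines.

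NANOG was at 16.1 and 15.5 CPM in IVF stem cells and at 0.170 and 0.192 at day 16, from 8 and 9 counts (log2 fold change -6.43 ± 0.49, adjusted p = 5.42e-08). In PA cells it fell from 12.2 and 12.3 to 0.454 and 0.710 CPM, from 20 and 34 counts (log2 fold change -4.39 ± 0.42, adjusted p = 6.26e-07). The chromosome 1 row fell with it, from 2.26 ± 0.276 to 0.0957 ± 0.0754 CPM in IVF cells and from 1.86 ± 0.181 to 0.0758 ± 0.0109 CPM in PA cells.

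SOX2 behaved differently. It was at 254 and 222 CPM in IVF stem cells and at 143 and 118 at day 16 (log2 fold change -0.87 ± 0.16, adjusted p = 2.74e-04), a 1.82-fold difference that stayed under the 2-fold limit. Without replicate 1 of IVF day 16 it was -1.01 and was called. In PA cells the values were 217 and 220.1 CPM and then 159 and 140 (log2 fold change -0.55 ± 0.16, adjusted p = 0.00814). The day 0 and day 16 libraries did not overlap in either line, and 54.8% and 68.5% of the day 0 level was left.

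From day 16 to day 28, SALL4 and LIN28A fell again in both lines. In IVF cells these were the 2 of 4 genes still above the floor that fell, where 11.6% of all tested genes fell, and in PA cells 4 of 4 fell, where 16.2% did. SALL4 reached 0.693 CPM in both IVF libraries (log2 fold change -5.34 ± 0.27, adjusted p = 5.67e-09) and 1.83 and 1.11 CPM in PA cells (log2 fold change -5.09 ± 0.25, adjusted p = 2.01e-09). The step from day 16 to day 28 was thus 40.4-fold for SALL4 in IVF cells, against 20.1-fold from day 0 to day 16. LIN28A reached 0.277 and 0.306 CPM in IVF cells (log2 fold change -4.51 ± 0.38, adjusted p = 4.45e-07) and 0.478 and 0.525 in PA cells (log2 fold change -3.93 ± 0.35, adjusted p = 2.80e-07).

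NANOG went to 4 and 2 counts in the IVF libraries of day 28 (log2 fold change -1.54 ± 0.82, adjusted p = 0.14) and to 8 and 0 counts in the PA libraries, which was called there (log2 fold change -2.78 ± 0.64, adjusted p = 0.00173). This PA value rests on replicate 1 of day 28: it was -1.86 without replicate 2, and without replicate 1 the library left had 0 counts. SOX2 was at 113 and 98.0 CPM in IVF cells (log2 fold change -0.31 ± 0.16, adjusted p = 0.123) and at 74.9 and 70.0 in PA cells, where it fell (log2 fold change -1.05 ± 0.16, adjusted p = 5.44e-05). That PA change was -0.95 with RLE scaling, with total counts, with DESeq2 or without replicate 1 of PA day 16, and it was also just under 2-fold without replicate 2 of PA day 28. The difference between the SOX2 steps of the lines was -0.74 ± 0.22 on the log2 scale (PA minus IVF, adjusted p = 0.0239), also under 2-fold.

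From day 28 to day 45 the remaining genes did not move one way. In IVF cells 2 rose and 1 fell of 4 above the floor, where 16.7% of all tested genes were called in either direction, and in PA cells 1 rose and 1 fell of 4, where 19.2% were. NANOG rose in IVF cells from 4 and 2 counts to 36 and 44, which is 0.785 and 0.880 CPM (log2 fold change 3.73 ± 0.64, adjusted p = 4.00e-04). It rose in PA cells from 8 and 0 counts to 16 and 37, or 0.343 and 0.736 CPM (log2 fold change 2.67 ± 0.64, adjusted p = 0.00375), a call lost when the fit held the compared libraries alone (adjusted p = 0.13). The PA value was 1.75 without replicate 2 of PA day 28, and without replicate 1 the day 28 library left had 0 counts. At day 45 NANOG was at 5.28% of its day 0 level in IVF cells and 4.39% in PA cells, and its libraries did not overlap those of day 28.

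The chromosome 1 row of NANOG held few reads at these days, with summed counts of 2 at day 28 and 6 at day 45 in IVF cells and of 4 and 9 in PA cells. At day 45 it took 6.98% of the NANOG reads of IVF cells and 14.5% of those of PA cells.

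LIN28A had 3 and 0 counts in the IVF libraries of day 45, a ratio to day 28 of 9.31 with a counting interval of 2.88 to 47.7 (adjusted p = 0.0221). In PA cells it had 0 and 13 counts (log2 fold change -1.88 ± 0.65, adjusted p = 0.0299). The IVF call was lost without either IVF library of day 28 (adjusted p = 0.0585 and 0.0759) or replicate 2 of IVF day 45 (adjusted p = 0.147). The PA call was lost without either PA library of day 28 (adjusted p = 0.0774 and 0.104), without replicate 1 of PA day 45 (log2 fold change -0.95, adjusted p = 0.157) or with the compared libraries alone (adjusted p = 0.249), and without replicate 2 of PA day 45 the library left had 0 counts.

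SALL4 was at 1.88 and 1.06 CPM in IVF cells at day 45, above both day 28 libraries (log2 fold change 1.07 ± 0.33, adjusted p = 0.0184). This rise was lost without either IVF library of day 28 (adjusted p = 0.0803 and 0.0897) or replicate 1 of IVF day 45 (log2 fold change 0.61, adjusted p = 0.239), and with total counts it was just under 2-fold (adjusted p = 0.0205). In PA cells SALL4 was at 1.59 and 0.836 CPM, within the range of day 28 (log2 fold change -0.30 ± 0.30, adjusted p = 0.445). The steps of the lines differed by -1.37 ± 0.45 (PA minus IVF, adjusted p = 0.0322), where 15.8% of all tested genes were called for this difference. It was lost with the compared libraries alone (adjusted p = 0.167) and without replicate 1 or 2 of IVF day 28, replicate 1 of IVF day 45, replicate 1 of PA day 28 or replicate 2 of PA day 45 (adjusted p = 0.0776 to 0.174).

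SOX2 was at 143 and 157 CPM in IVF cells at day 45 (log2 fold change 0.51 ± 0.16, adjusted p = 0.0184) and at 116 and 78.1 in PA cells (log2 fold change 0.42 ± 0.16, adjusted p = 0.0449), both under 2-fold. It was at 62.9% of its day 0 level in IVF cells and 44.3% in PA cells. On the deposited TPM scale the share of SOX2 left at day 28 in PA cells was 49.9% in place of 33.2%. Of the 10 genes, 8 were under 1% of their day 0 level at day 45 in both lines, all but SOX2 and NANOG.

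**Figure D2:**
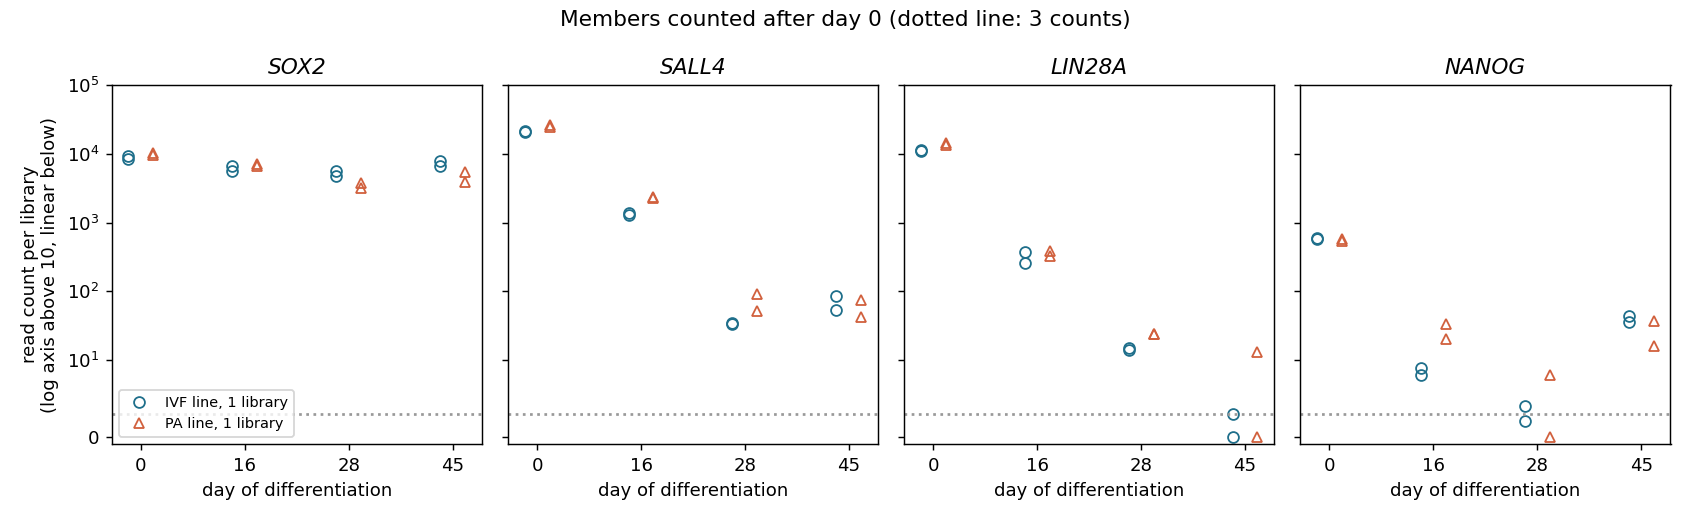
Read counts per library (log axis above 10, linear below), by day, for the IVF line (circles) and the PA line (triangles), with 3 counts as a dotted line. The 4 genes shown are those with a mean above 3 counts in any group after day 16. SALL4 and LIN28A stand above SOX2 at day 0 and step down at day 16 and at day 28, and SOX2 has the highest counts from day 16 on. NANOG stands higher at day 45 (16 to 44 counts) than at day 28 (0 to 8).

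Summed over the 10 genes, the deposited TPM was 3539 to 3654 in the day 0 libraries and 195 to 390.2 in the later ones. Without SOX2 the sum was 3086 to 3146 at day 0, 34.3 to 52.5 at day 16 and 1.23 to 3.21 at days 28 and 45. SOX2 therefore made up nearly all of what was left at days 28 and 45, while at day 16 SALL4 and LIN28A still held a visible share.

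Between the lines at day 0, 1 of the 10 genes was called, where 6.61% of all tested genes were. ZFP42 was at 36.7 and 35.9 CPM in IVF cells and at 122 and 123 in PA cells (log2 fold change 1.75 ± 0.14, 3.37-fold, adjusted p = 1.08e-04). It was higher in 2 of 2 PA libraries, and leaving out any 1 library gave 1.73 to 1.77. TDGF1 was at 20.6 ± 1.5 CPM in PA cells and 12.7 ± 0.729 in IVF cells (log2 fold change 0.70 ± 0.21), and this did not pass (adjusted p = 0.0628).

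For the other 8 genes the difference at day 0 was between -0.36 and 0.23 on the log2 scale, and none passed the test. POU5F1 differed by 0.23 ± 0.12 (adjusted p = 0.251), SOX2 by -0.13 ± 0.16 (adjusted p = 0.65) and NANOG by -0.36 ± 0.34 (adjusted p = 0.52). PRDM14 was the gene whose libraries overlapped between the lines.

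**Figure D3:**
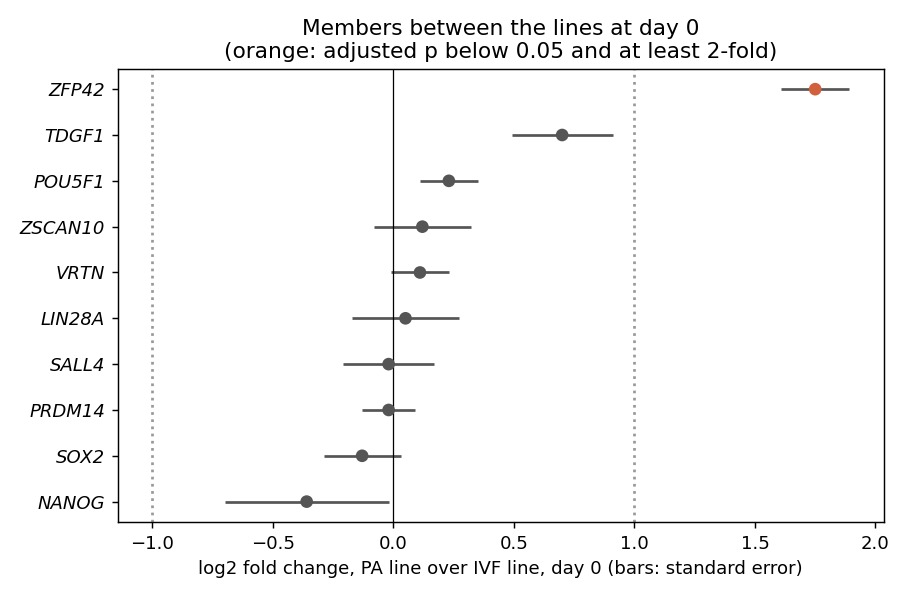
Log2 fold change of each of the 10 genes at day 0, PA line over IVF line (points, with bars of 1 standard error from the edgeR fit), with dotted lines at a 2-fold change in either direction. ZFP42 is the point beyond the dotted lines, at 1.75, TDGF1 follows at 0.70, and the others lie between -0.36 and 0.23.

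Some other genes of the early embryo also differed between the stem cells of the lines. Of all tested genes, 6.61% were called in either direction. Of 13 tested genes of naive pluripotency and the inner cell mass, 3 were higher in PA cells, 0 were lower and 10 did not pass, with a median log2 difference of 0.91 (0.01 over all genes). TFAP2C, an AP-2 factor active in early trophectoderm, germ cells and naive cells, was at 17.4 ± 1.05 CPM in PA cells and 0.536 ± 0.0108 in IVF cells (log2 fold change 5.02 ± 0.54, adjusted p = 2.67e-05). ESRRB, an orphan nuclear receptor, was higher by 1.01 ± 0.26 on the log2 scale (adjusted p = 0.0163), and DNMT3L, a cofactor of DNA methylation, at 1.93 ± 0.790 and 0.253 ± 0.127 CPM (adjusted p = 0.021). KLF4, at 10.6 ± 0.263 and 4.85 ± 0.173 CPM, did not pass (adjusted p = 0.0732). Of 14 tested markers of primed pluripotency, the later epiblast state, 0 were higher and 0 lower. Among 16 other stem cell regulators 1 was higher and 0 were lower. The naive genes summed to 53.3 to 54.1 CPM in PA and 15.9 to 18.9 in IVF cells, and the primed ones to 5306 to 5371 and 5357 to 5430.1.

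Some markers of other cell types were also higher in PA stem cells, where 6.61% of all tested genes were called in either direction. Of 5 tested germ cell markers 2 were higher, TFAP2C among them, and 0 lower. For other types, 0 of 4 mesoderm, 0 of 9 mesenchyme and 0 of 6 astrocyte markers were called. Of 7 tested trophectoderm markers 3 were higher and 0 lower. The 3 were KRT18, GATA3 and TFAP2C, and TFAP2C was already counted among the naive genes above. The summed CPM of the 9 measured was 470.2 to 501 in PA and 97.3 to 105 in IVF cells, with 2 of the 9 at 0 counts in both lines. KRT18, an epithelial keratin, made up most of it at 457 ± 21.2 and 97.4 ± 5.35 CPM (log2 fold change 2.23 ± 0.15, adjusted p = 3.10e-07). GATA3 was at 1.81 ± 0.0849 and 0.149 ± 0.211 CPM (adjusted p = 9.40e-04). Of 8 tested hypoblast and endoderm markers 3 were higher and 0 lower, with FOXA2 at 28.2 ± 1.45 and 4.38 ± 2.96 CPM (log2 fold change 2.68 ± 0.34, adjusted p = 1.25e-04), and the 9 measured, 2 of them at 0 counts in both lines, summed to 106 to 113 CPM in PA and 77.9 to 89.4 in IVF cells.

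Of 10 tested neural progenitor markers 2 were higher in PA stem cells, 4 were lower and 4 did not pass, and of 9 tested neuron markers 0 were higher, 1 was lower and 8 did not pass. Over all tested genes, 6.61% were called in either direction in this comparison. SOX3, at a low level in the stem cells of both lines, was among the higher progenitor markers (log2 fold change 1.55 ± 0.38, adjusted p = 0.0134). The neural factor PAX6 was lower, at 0.0457 ± 0.0646 CPM in PA and 14.6 ± 7.44 in IVF stem cells (log2 fold change -8.29 ± 0.69, adjusted p = 2.89e-06). Its PA mean was below its SD, and below the 0.0686 and 0.0634 CPM that a count of 0 allows in the PA day 0 libraries. The IVF libraries also spread widely. The size of this PAX6 fold thus rests on very few PA reads and is uncertain. The growth-cone protein STMN2 was at 70.0 ± 0.957 CPM in PA and 158 ± 28.4 in IVF cells (adjusted p = 4.13e-04). The 9 neuron markers summed to 411 to 493 CPM in IVF and 259 to 275 in PA stem cells. Their part in the ZFP42 difference was not tested.

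At day 16 NANOG was the 1 gene called between the lines, where 9.08% of all tested genes were, with 0.454 and 0.710 CPM in PA cells against 0.170 and 0.192 in IVF cells (log2 fold change 1.68 ± 0.56, adjusted p = 0.0464). The chromosome 1 row, which took 34.6% of the NANOG reads of IVF cells and 11.5% of those of PA cells at this day, did not pass (log2 fold change -0.32 ± 0.85, adjusted p = 0.857). This call was lost with total counts (adjusted p = 0.06) and without any of the 8 IVF libraries or the 4 PA libraries of days 0 and 16 (adjusted p = 0.056 to 0.261). The difference between the lines in the step from day 0 to day 16 was 2.04 ± 0.65 for NANOG and 0.86 ± 0.27 for SALL4 (adjusted p = 0.0623 and 0.0572). Of the 4 genes with a value, 0 passed that test, with NANOG and SALL4, 2 genes, at an unadjusted p below 0.05, where 6.84% of all tested genes were called. With DESeq2, NANOG passed (adjusted p = 0.00842), as the 1 of 4 genes called. SALL4 was at 54.1 and 47.1 CPM in PA and 29.3 and 27.0 in IVF cells at day 16 (log2 fold change 0.85 ± 0.19, adjusted p = 0.00688), under 2-fold.

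At day 28 SALL4 was called, where 17.1% of all tested genes were, with 1.83 and 1.11 CPM in PA and 0.693 in both libraries of IVF cells (log2 fold change 1.10 ± 0.33, adjusted p = 0.0165). It was lost without either IVF library of day 28 (adjusted p = 0.0811 and 0.0727) or replicate 1 of PA day 28 (log2 fold change 0.68, adjusted p = 0.22). SOX2 was lower in PA cells in 2 of 2 libraries at that day (log2 fold change -0.54 ± 0.16, adjusted p = 0.0145), under 2-fold. The difference between the lines in the step from day 16 to day 28 was called for 0 of 3 genes with a value, with 1 at an unadjusted p below 0.05 (SOX2) and 0 with DESeq2, where 15.2% of all tested genes were called.

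At day 45, 0 of 4 genes with a value were called between the lines, where 13.9% of all tested genes were. SOX2 was the 1 gene at an unadjusted p below 0.05 (log2 fold change -0.63 ± 0.16, adjusted p = 0.00628), under 2-fold, and DESeq2 called 0. Without replicate 1 of PA day 45, LIN28A was called, since the PA library left had 13 counts (adjusted p = 0.016).

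Genes known to work with the 10 were followed by lists. Of 14 tested markers of primed pluripotency, the later epiblast state, 8 fell at day 16 in each line. In full, 0 rose, 8 fell and 6 did not pass in IVF cells (median log2 fold change -2.04), and 1 rose, 8 fell and 5 did not pass in PA cells (median -2.50), while the median over all genes was 0.00 in both lines. In the 2 lines, 20.2% and 18.0% of all tested genes rose, and 14.0% and 14.4% fell. ZIC2, a zinc-finger factor, fell from 426 ± 29.3 to 1.56 ± 0.260 CPM in IVF cells (log2 fold change -8.09 ± 0.23, adjusted p = 8.96e-12) and, in PA cells, from 389 ± 8.10 to 1.43 ± 0.162 (log2 fold change -8.09 ± 0.23, adjusted p = 8.61e-12). DNMT3B, a DNA methyltransferase of the epiblast, fell from 1861 ± 128 to 41.1 ± 1.9 CPM in IVF cells and from 1891 ± 5.87 to 41.4 ± 1.08 CPM in PA cells (adjusted p = 1.49e-11 and 1.92e-11). OTX2, which is used in both the epiblast and the anterior neural plate, did not pass at 583 ± 3.41 and 352 ± 2.50 CPM in IVF cells (adjusted p = 0.00796, under 2-fold) and at 549 ± 8.27 and 543 ± 29.5 CPM in PA cells (adjusted p = 0.979).

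Of 16 other regulators of stem cells, 0 rose and 8 fell in IVF cells and 0 rose and 9 fell in PA cells, with medians of -1.07 and -1.32. At this step 20.2% and 18.0% of all tested genes rose in IVF and PA cells, and 14.0% and 14.4% fell. ESRP1, an epithelial splicing factor, fell from 51.9 ± 0.356 to 0.0319 ± 0.0452 CPM in IVF cells and from 101 ± 2.50 to 0.0626 ± 0.0886 CPM in PA cells (adjusted p = 7.59e-10 and 4.47e-10). UTF1, a chromatin factor of undifferentiated cells, fell in PA cells from 12.7 ± 2.23 to 0.247 ± 0.0929 CPM (adjusted p = 3.05e-08). In IVF cells its mean was also lower at day 16, at 0.266 CPM against 4.88 at day 0. The E protein TCF3 was lower at day 16 in both lines, but under 2-fold and so not called. It was at 259 ± 5.05 and 133 ± 3.32 CPM in IVF cells (adjusted p = 8.01e-06) and 261 ± 7.35 and 153 ± 2.48 in PA cells (adjusted p = 6.83e-05).

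TDGF1 works with the NODAL branch of the TGF-beta family. Of 18 tested genes of this branch 3 rose, 4 fell and 11 did not pass in IVF cells, and 3 rose, 6 fell and 9 did not pass in PA cells, with medians of -0.09 and -0.04. Over all tested genes, 20.2% rose and 14.0% fell in IVF cells, and 18.0% rose and 14.4% fell in PA cells. FOXH1, the DNA-binding partner of SMAD2, fell from 71.3 ± 1.14 to 0.977 ± 0.478 CPM in IVF cells (log2 fold change -6.18 ± 0.28, adjusted p = 3.21e-10) and, in PA cells, from 86.0 ± 0.799 to 0.836 ± 0.0579 CPM (adjusted p = 2.19e-10). The signal transducer SMAD3 rose from 1.70 ± 0.989 to 153 ± 2.12 CPM in IVF cells and from 7.78 ± 0.470 to 62.3 ± 4.61 in PA cells (adjusted p = 3.62e-10 and 1.13e-07). The receptors ACVR2B and TGFBR1 were not called in either line. In IVF cells both were lower by less than 2-fold (log2 fold change -0.62 ± 0.15 and -0.3 ± 0.11, adjusted p = 0.00267 and 0.0334). In PA cells the adjusted p was 0.161 and 0.564. At day 0, the NODAL antagonists CER1 and LEFTY2 were higher in PA than in IVF stem cells, at 15.4 ± 1.12 against 2.16 ± 1.24 CPM (adjusted p = 0.0045) and 18.9 ± 1.96 against 6.01 ± 0.765 CPM (adjusted p = 0.00497).

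LIN28A acts on let-7, a microRNA family that represses HMGA2, IGF2BP1 and other mRNAs of immature cells. Of 18 tested genes of this axis 1 rose and 4 fell in IVF cells from day 0 to day 16, and 1 rose and 3 fell in PA cells (medians -0.34 and -0.04). At this step 14.0% and 14.4% of all tested genes fell. From day 16 to day 28, 0 rose, 9 fell and 9 did not pass in each line (medians -0.93 and -1.03), where 11.6% and 16.2% of all tested genes fell. TRIM71, a ubiquitin ligase and let-7 target, fell at both steps: in IVF cells from 438 ± 23.0 to 38.3 ± 1.70 and then to 10.3 ± 0.046 CPM, and in PA cells from 407 ± 2.18 to 38.2 ± 1.51 and then to 7.17 ± 0.276 CPM. HMGA2, a chromatin protein, fell from day 16 to day 28 from 32.3 ± 1.96 to 3.43 ± 0.641 CPM in IVF cells (adjusted p = 4.37e-08) and from 42.7 ± 13.0 to 6.34 ± 0.988 in PA cells (adjusted p = 4.33e-08). DICER1, which cuts microRNA precursors, did not pass at either step in either line.

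**Figure D4:**
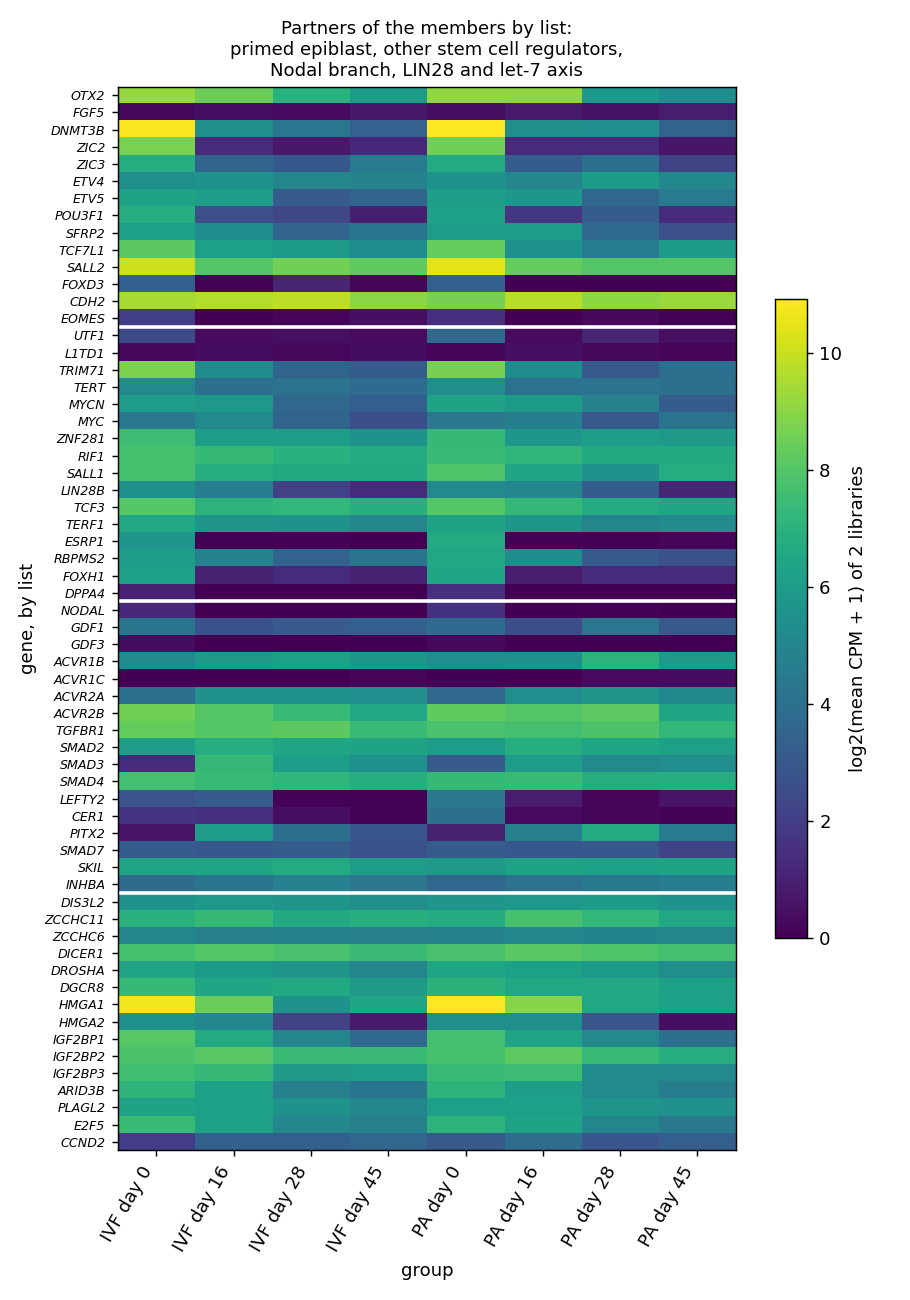
Level of the tested genes of 4 lists (rows, white lines between the lists: primed epiblast, other stem cell regulators, NODAL branch, LIN28 and let-7 axis; a gene on 2 lists is shown once) in the 8 groups (columns), as log2(mean CPM + 1) of 2 libraries. ZIC2, FOXH1 and ESRP1 are bright at day 0 and dark afterwards, DNMT3B and TRIM71 are dimmer after day 0 (41.1 and 38.3 CPM at day 16 in IVF cells), and HMGA2 keeps a like shade at days 0 and 16 (47.0 and 32.3 CPM in IVF cells) and is darker at day 28.

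The POU and SOX families showed members that rose as POU5F1 fell. Of 8 tested POU genes 4 rose and 2 fell in IVF cells and 3 rose and 1 fell in PA cells at day 16. The neural factors POU3F2 and POU3F3 rose from 0.991 ± 0.020 to 324 ± 4.01 CPM and from 1.35 ± 0.409 to 153 ± 6.34 CPM in IVF cells (adjusted p = 3.97e-11 and 1.16e-11), and POU3F1, which is used in the epiblast, fell from 109 ± 18.6 to 5.31 ± 0.345 CPM (adjusted p = 1.02e-10). In PA cells POU3F2 rose from 0.269 ± 0.201 to 333 ± 8.09 CPM, POU3F3 from 0.436 ± 0.1 to 196 ± 13.9 CPM, and POU3F1 fell from 75.7 ± 0.0324 to 2.27 ± 0.418 CPM. Of 17 tested SOX genes 6 rose and 6 fell in IVF cells and 7 rose and 4 fell in PA cells. At this step 20.2% and 18.0% of all tested genes rose in IVF and PA cells, and 14.0% and 14.4% fell. SOX3, of the same subgroup as SOX2, rose from 0.200 ± 0.129 to 5.11 ± 0.211 CPM in IVF cells (adjusted p = 2.15e-08) and from 0.594 ± 0.0329 to 7.45 ± 0.936 in PA cells (adjusted p = 4.62e-08), and stayed far below the 131 ± 17.3 and 149.7 ± 13.6 CPM of SOX2.

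Over the 16 libraries, the genes most like each of the 10 were sought among 12565 named genes, by Pearson correlation of log2(CPM + 1). The libraries share their day and their line, so these values describe one step at day 0 more than anything finer. For POU5F1, PRDM14, VRTN and ZSCAN10 the same 3 genes came closest, PROX2, FOXA3 and MT1D (r = 0.9986 to 0.9995), and for each of the 4 there were 32 genes above 0.99. ZFP42 was most like RAB17, CDA and AP1M2 (r = 0.9978 to 0.9992), which like ZFP42 had higher levels in PA than in IVF stem cells, for example 42.7 against 15.5 CPM for AP1M2. TDGF1 was most like ESRP1, MARVELD3 and ARHGEF16 (r = 0.9994 to 0.9995).

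The genes that left reads behind had other neighbours. SALL4 was most like HMGA1 (r = 0.9948), PSMB5 and TMEM243, LIN28A most like NR6A1 (r = 0.9936), KNOP1 and PARP1, and NANOG most like TMEM37 (r = 0.9914), EPCAM and PCOLCE2. SOX2 had no gene above 0.99, and its closest were ZFAND6 (r = 0.9745), VSIG10 and SHC1. Among the 10 genes SOX2 was also the least like the others (r = 0.76 to 0.844), while SALL4 and LIN28A were close to each other (r = 0.978).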

How the data were processed

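Poly-A RNA libraries were made with a stranded kit. Per the labels and the study's methods, the authors trimmed reads with Trimmomatic 0.38, mapped the trimmed reads to Sscrofa11.1 using HISAT2 2.1.0, sorted them with SAMtools 1.9 and quantified RefSeq genes with StringTie 2.1.3b. Whether reads were counted by strand is not given in the sources used here. The deposited read counts are unscaled whole numbers. The deposited TPM values were scaled by the authors to transcript length and library total. A further 16 columns of per-library FPKM values were not used.

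Counts were fitted in R 4.3.3 with edgeR 4.0.16 (limma 3.58.1): filterByExpr (minimum count 10), TMM, 8 group means over 16 libraries, 8 residual degrees of freedom, quasi-likelihood test. Standard errors were obtained as the absolute log2 fold change over the root of the F statistic. A group at 0 gives a bound from 3 counts per library. A group with 1 to 3 counts gives a ratio with a 95% Clopper-Pearson interval. Genes with both groups at a mean of 3 counts or fewer (any group, for differences of steps) have no value, a rule set after the values were seen. Replicates differed by more than counting noise (median chi-square 1.73 to 16.9 by group), so none was merged.

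The members and the 17 gene lists were chosen with earlier results of these data known. All 10 members are named. Per list and comparison, up to 4 called genes with the smallest adjusted p and up to 2 uncalled genes with the highest level could be named, and per member the 3 genes of highest correlation, without LOC symbols and with at least 5 CPM in a group. Of the 190 different list genes, 12 had no row by symbol. Copies were sought with BLAST 2.17.0 and motifs in 250 bases before each start, in Python 3.11.15.

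Alternatives were RLE, upper-quartile and total-count scaling, other filters, no fold minimum, the compared libraries alone, a block for replicate number, each library left out in turn, and DESeq2 1.42.0. In a simulation of the IVF comparison of days 16 and 0, the test recovered 35.8% of true 2-fold changes, 95.5% at 4-fold and 100% at 8-fold, and made 4 false calls among 17975 genes tested. It changed 67, 67 and 66 genes, all above a minimum mean level, and left the others unchanged. Far more genes changed in the data, and genes with few counts, such as NANOG at late days, are not covered. A true 2-fold change is also missed when its estimate falls under 2-fold.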

Additional observations from a re-analysis of the deposited data

Results flagged for a closer look

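For 2 genes, the difference between the lines in a step of differentiation had an adjusted p below 0.05, and for SOX2 it stayed under 2-fold and so was not called. For SOX2 the step from day 16 to day 28 differed by -0.74 on the log2 scale (PA minus IVF, standard error 0.22, edgeR adjusted p = 0.0239), with 149.7 ± 13.6 and 72.4 ± 3.43 CPM in PA cells and 131 ± 17.3 and 105 ± 10.3 CPM in IVF cells (SD, n = 2). Leaving out any 1 library gave -0.88 to -0.61. For SALL4 the step from day 28 to day 45 differed by -1.37 (standard error 0.45, adjusted p = 0.0322), with 1.47 ± 0.508 and 1.21 ± 0.531 CPM in PA cells and 0.693 and 1.47 ± 0.577 CPM in IVF cells. Leaving out any 1 library gave -1.9 to -0.92, and the call was lost in 5 of these fits (adjusted p = 0.0776 to 0.174) and with the compared libraries alone (adjusted p = 0.167). The replicates of PA day 45 were the least alike of all groups (r = 0.983), and the part of this in the SALL4 difference was not tested.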

How the results depend on the processing

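The 9 falls from day 0 to day 16 in each line were called under all 25 alternatives, as was ZFP42 at day 0. Of 1672 refits of 67 fold changes, 1600 kept their side of the threshold and their direction, 40 lost the call, 17 gained it and 15 turned direction, none of them in a called change.

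Counts of called genes that moved by more than 1.5 times were these. With the compared libraries alone the count was 0 for PA day 45 versus day 28, 1 for the difference of steps from day 0 to 16 and 0 for that from day 28 to 45. With total counts, and with the replicate number as a block, it was 0 for PA versus IVF at day 16. With no fold minimum it was 2 at day 16, 2 at day 28, 1 at day 45 and 1 for the difference of steps from day 16 to 28. With no filter, and with DESeq2, it was 1 for the difference from day 0 to 16. Leaving out 1 library gave 1 to 3 for IVF day 45 versus day 28, 1 to 2 for PA day 45 versus day 28, 0 to 1 for PA versus IVF at days 16, 28 and 45, and 0 to 1 for the differences from day 0 to 16 and from day 28 to 45. Smaller moves were from 9 to 10 for IVF day 16 versus day 0 (SOX2 gained without replicate 1 of IVF day 16 or with no fold minimum) and from 4 to 3 for PA day 28 versus day 16 (SOX2 lost with RLE, total counts, DESeq2 or without replicate 1 of PA day 16 or replicate 2 of PA day 28). The causes were not tested.

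Direction turned for SALL4 at day 0 with upper-quartile scaling (0.00) and for the SOX2 difference from day 28 to 45 with total counts (0.01). Leaving out 1 library gave -0.83 to 0.11 for SALL4 in PA day 45 versus day 28, -0.07 to 0.03 for PRDM14 between lines at day 0, -0.04 to 0.46 for LIN28A at day 16, -4.53 to 1.37 for NANOG at day 28, -0.80 to 0.18 for SALL4 and -3.65 to 5.66 for LIN28A at day 45, -0.08 to 0.41 for the LIN28A difference from day 0 to 16, -0.16 to 0.55 for the SALL4 difference from day 16 to 28 and -0.40 to 0.16 for the SOX2 difference from day 28 to 45. Total counts moved the median of all genes by 0.12 for IVF day 16 versus day 0 and for the difference of steps from day 28 to 45.

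The replicate numbers did not pair the libraries (r from -0.0502 to 0.116 over 28 pairs of groups, 1 above 0.1). The replicate block took away the NANOG call at day 16 (log2 fold change 1.67, adjusted p = 0.0549) and changed no other call. Depth limits NANOG, with 0 to 44 counts per library at days 28 and 45, and LIN28A, with 0 to 24.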

Other observations

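SALL2 and SALL3, relatives of SALL4, and PRDM16, a relative of PRDM14, were still counted at day 16. From day 0, 0 of 3 tested SALL relatives rose, and 1 fell in IVF cells and 2 in PA cells. Among them SALL1 went from 212 to 111 CPM in IVF cells and from 239.8 to 88.1 in PA cells. Of 11 tested PRDM relatives 2 rose and 1 fell in IVF cells, and 2 rose and 2 fell in PA cells. Over all tested genes, 20.2% and 18.0% rose, and 14.0% and 14.4% fell. SALL2, a zinc-finger factor, fell from 1096 ± 29.2 to 264 ± 11.2 CPM in IVF cells from day 0 to day 16 (SD, n = 2, edgeR adjusted p = 8.12e-08) and from 1405 ± 2.07 to 326 ± 56.6 CPM in PA cells (adjusted p = 7.05e-08). SALL3 was at 69.0 ± 6.94 and 40.8 ± 0.0508 CPM in IVF cells and at 43.8 ± 0.713 and 43.4 ± 1.48 CPM in PA cells, and did not pass in either. PRDM16, a regulator of neural progenitors, rose from 0.134 ± 0.0352 to 16.6 ± 1.70 CPM in IVF cells (adjusted p = 1.36e-09) and from 0.393 ± 0.0714 to 7.27 ± 0.290 CPM in PA cells (adjusted p = 3.94e-08).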
